A study of Mus musculus with 10 samples.

Results

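The genes described here encode 9 transcription factors of lymphatic endothelial fate and of lymphatic valves: Prox1, Nr2f2, Sox18, Sox7, Sox17, Foxc1, Foxc2, Maf and Tbx1. They were chosen by gene symbol, and all 9 were found among the 16251 genes of a deposited read-count table, each with enough counts to be among the 12161 genes tested. The table covers cultured primary LECs of the mouse (lymphatic endothelial cells, which form the inner lining of lymph vessels). In 5 libraries the cells had received 50 nM of a small interfering RNA (siRNA) duplex against Vegfr2, the growth factor receptor encoded by Kdr, and the other 5 libraries are labelled control. RNA was taken at 48 h. Both groups carry the same treatment tag, and whether control cells were given a non-targeting duplex is not stated. Since the labels do not say if the 5 replicates are 5 cultures, every p-value refers to variation among these libraries, possibly only technical. For the donor mice, the labels of these libraries name no strain, age or allele.

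PROX1 is the homeodomain factor that gives venous endothelial cells of the embryo their lymphatic fate, and lymphatic endothelium keeps making it throughout life. In the mouse, SOX18 and the nuclear receptor NR2F2 (COUP-TFII) act on the Prox1 gene in the cardinal vein, and NR2F2 also binds PROX1 protein. FOXC2 works later, together with PROX1, GATA2 and NFATC1, in shaping the valves of collecting vessels. SOX7 and SOX17 are the closest relatives of SOX18, FOXC1 is the closest relative of FOXC2, MAF is a leucine zipper factor made by lymphatic endothelium, and TBX1 is a T-box factor needed for lymphatic vessel growth in mice.

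The start regions of Prox1 and Nr2f2 are shown because these genes had the most similar profile over the libraries of any pair of the 9 factors (below). Each is the 250 bases before an annotated start, on the minus strand of GRCm38.p6, from RefSeq, written 5′ to 3′ with CG dinucleotides in capitals.
Prox1, chr1:190170828-190171077: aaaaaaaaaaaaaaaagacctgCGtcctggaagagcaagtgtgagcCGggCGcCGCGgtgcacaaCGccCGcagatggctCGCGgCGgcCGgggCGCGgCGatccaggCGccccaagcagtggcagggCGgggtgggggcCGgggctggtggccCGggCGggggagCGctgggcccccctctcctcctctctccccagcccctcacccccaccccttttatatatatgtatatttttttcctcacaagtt
Nr2f2, chr7:70366747-70366996: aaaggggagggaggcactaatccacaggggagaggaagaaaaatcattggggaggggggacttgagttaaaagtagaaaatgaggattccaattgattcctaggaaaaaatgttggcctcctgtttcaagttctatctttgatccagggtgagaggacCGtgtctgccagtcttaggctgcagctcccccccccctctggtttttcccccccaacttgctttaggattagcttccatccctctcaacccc
The Prox1 window shown holds 20 CG dinucleotides and the Nr2f2 window 1, against a median of 6 over 32851 such windows of all genes. A further Prox1 window, before another annotated start and not shown, holds 11. RefSeq windows were matched for 4 of the 9 genes (Prox1, Nr2f2, Foxc1 and Tbx1), 6 windows in all. None of the 6 holds, on either strand, the SOX word ACAAT (in 27.7% of all windows), the forkhead word GTAAACA (3.17%), the nuclear receptor word AGGTCA (14.0%), the MAF word TGCTGA (16.1%), the T-box word GGTGTGA (3.33%), the ETS word CCGGAAG (6.91%) or the GATA word AGATAA (9.99%). No word overlaps another in these windows, and the absence of a word says only that its letters are not there.

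Libraries held 17946483 to 18239260 estimated counts, and Kdr stood at 14.0% ± 1.12 of its control level in the siRNA libraries (SD, n = 5), lower as the labels have it. All 8 lymphatic markers were among the genes tested. Their summed level was 11078 to 12030 CPM (counts per total of 1000000, on library sizes scaled by TMM) in siRNA libraries and 16390 to 17950 CPM in control libraries. Of the 8 markers 7 fell, Prox1 itself among these, and Pdpn rose. Ccl21a was low, at 0.878 ± 0.352 CPM in siRNA and 2.84 ± 0.533 CPM in control libraries (SD, n = 5 each). For comparison with these marker counts, 35.2% of all 12161 tested genes passed as lower and 36.1% as higher in the test described below. Of the 6 markers of any endothelium 5 fell, and they summed to 4004 to 4180 CPM in siRNA libraries and 5007 to 5213 CPM in control libraries. The 8 blood endothelial markers summed to 843 to 878 CPM in siRNA and 1142 to 1164 CPM in control libraries, and 3 of the 5 tested fell. Emcn fell to 531 ± 8.58 CPM in siRNA libraries, against 616 ± 11.8 CPM in control libraries (SD, n = 5 each). Plvap fell to 109 ± 6.99 CPM in siRNA libraries, against 315 ± 14.1 CPM in control libraries. Cd34, at 70.0 ± 2.83 CPM in siRNA and 67.4 ± 6.25 CPM in control libraries, did not pass. Ackr1, Aplnr and Vwf were near 0, with 1, 4 and 23 counts over the siRNA libraries and 0, 8 and 52 over the control libraries. The 9 mural and fibroblast markers summed to 11.2 to 14.0 CPM in siRNA and 10.7 to 15.0 CPM in control libraries, but single ones moved in opposite directions. Acta2 rose to 5.22 ± 0.645 CPM in siRNA libraries, against 3.39 ± 0.556 CPM in control libraries (SD, n = 5 each; adjusted p = 7.50e-06). Pdgfrb fell to 4.84 ± 0.699 CPM in siRNA libraries, against 6.45 ± 1.22 CPM in control libraries (adjusted p = 0.00183), and Cspg4 did not pass (adjusted p = 0.357). The other 6 were under the filter on low counts: Pdgfra had 45 counts over the siRNA and 5 over the control libraries, Rgs5 and Lum had 1 count each over the siRNA and 0 over the control libraries, and Col1a1, Col1a2 and Dcn had at most 39 in a group. Of leukocyte markers, Cd68 was at 34.0 ± 4.17 CPM in siRNA and 44.7 ± 3.26 CPM in control libraries (SD, n = 5 each), while Csf1r, Itgam and Cd79a had at most 6 counts in a group; 4 others, the defining marker Ptprc among them, had no value used here. The epithelial keratin gene Krt18 was at 8.22 ± 0.383 CPM in siRNA and 1.67 ± 0.469 CPM in control libraries. The other epithelial markers with values were near 0. Krt8 had 0 counts over the siRNA and 4 over the control libraries, Epcam 5 and 3, and Cdh1 1 and 1. Krt5 and Krt14 had no value used here. The part of these shifts in the results below was not tested. In bulk RNA, fewer cells of a type and less RNA per cell cannot be told apart.

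Of the 9 factors, 7 were lower after the siRNA (Prox1, Nr2f2, Sox18, Maf, Tbx1, Foxc2 and Foxc1), Sox7 was higher, and Sox17 did not pass the test (edgeR quasi-likelihood F test, Benjamini-Hochberg adjusted p under 0.05 over all 12161 genes). The changes were small: the largest, in Maf, left 65.8% of the control level, and no factor reached 2-fold. Across all genes tested, 71.3% passed, 35.2% of genes downward and 36.1% upward, so a factor that passed was in the majority. The median log2 fold change of the 9 factors was −0.24, and that of all tested genes 0.00 (quartiles −0.23 and 0.21). When the test asked for a change of more than 1.5-fold (edgeR glmTreat), 0 of the 9 passed, and 0 had an unadjusted p under 0.05, while 1041 of all genes passed. In 6 of the factors every siRNA library lay below every control library, and in 0 every one lay above; among all tested genes the groups were apart in 57.0%, with siRNA libraries below in 28.2% and above in 28.8%. In the other 3 factors (Sox7, Sox17 and Foxc1) the groups overlapped.

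**Figure D1:**
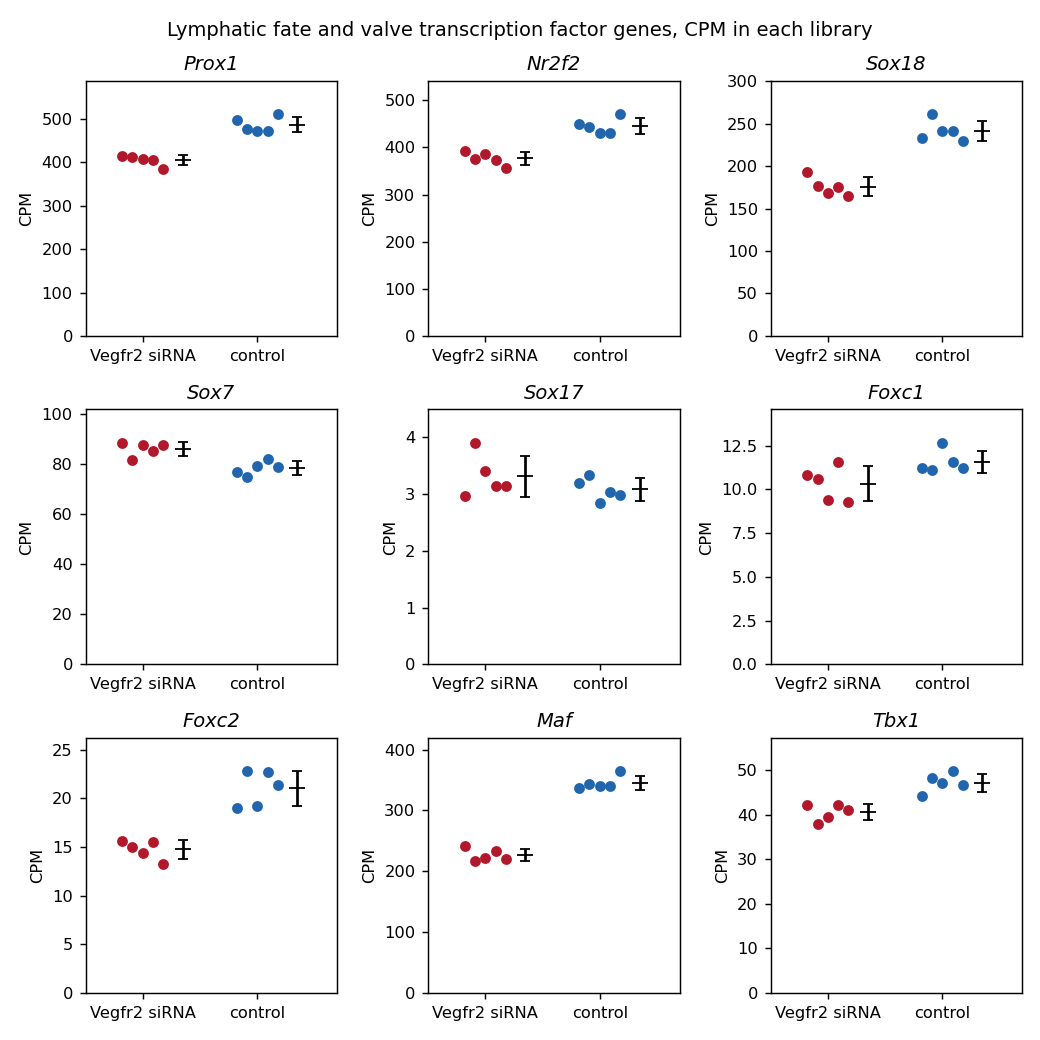
Level of each of the 9 genes in CPM (vertical axes start at 0) in each library, with Vegfr2 siRNA libraries in red and control libraries in blue; black bars give the mean and SD of 5 libraries. The siRNA libraries of Prox1 lie between 384 and 414 CPM and its control libraries between 473 and 511 CPM, without overlap.

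Prox1 (Entrez gene 19130, chromosome 1, 190118035 to 190170827 on GRCm38.p6) was at 414, 413, 408, 406 and 384 CPM in siRNA libraries 1 to 5, against 498, 478, 473, 473 and 511 CPM in control libraries 1 to 5. All siRNA libraries lay below all control libraries, and library 5 of each group stood farthest out. Prox1 was thus at 83.3% ± 2.50 of its control level in siRNA libraries (SD, n = 5; fitted log2 fold change −0.26, SE 0.0255, adjusted p = 2.29e-12), and 22.8% of tested genes had a change as low or lower. Permuting the libraries exactly (two-sided, 252 assignments, log2 CPM) gave p = 0.00794, which no result of 5 against 5 can go below. Of the exon bases of Prox1, 1.59% are shared with the opposite-strand gene Prox1os, and the strand setting of the counts is not stated.

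Nr2f2 (Entrez gene 11819, chromosome 7, 70351946 to 70366746), the nuclear receptor that also marks venous endothelium, was at 393, 376, 385, 373 and 355 CPM in siRNA libraries 1 to 5 and at 450, 443, 430, 430 and 470 CPM in control libraries 1 to 5. The groups did not overlap, with library 5 again lowest of the siRNA and highest of the control libraries. Nr2f2 fell by 0.24 on the log2 scale (SE 0.0268, adjusted p = 2.58e-10). Within a library, the log2 ratio of Prox1 to Nr2f2 averaged 0.11 ± 0.03 in siRNA libraries and 0.13 ± 0.02 in control libraries (SD, n = 5 each), a difference of −0.02 (SE 0.0140) that did not pass (exact permutation test, adjusted over 7 ratios, p = 0.176). Of the genes with a mean of at least 5 CPM, 10324 were compared with Prox1 by the root mean square difference of their centred log2 CPM over the 10 libraries. The closest were Acap2 (0.0168), Racgap1 (0.0200) and Nr2f2 (0.0232). Their log2 fold changes of −0.28, −0.28 and −0.24 lay near that of Prox1 by the choice itself, since the measure includes the difference between the groups. Of the exon bases of Nr2f2, 7.46% are shared with the opposite-strand gene B130024G19Rik.

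Sox18 (Entrez gene 20672, chromosome 2, 181669837 to 181671640) fell more. It was at 193, 176, 168, 176 and 165 CPM in siRNA libraries 1 to 5 and at 234, 261, 241, 241 and 230 CPM in control libraries 1 to 5. No siRNA library reached the lowest control library. It was at 72.8% ± 4.58 of its control level in siRNA libraries (SD, n = 5), a fall by 0.46 on the log2 scale (SE 0.0428, adjusted p = 1.99e-07). Prox1 fell less than Sox18: their within-library log2 ratio was 1.21 ± 0.07 in siRNA and 1.01 ± 0.11 in control libraries (SD, n = 5 each), a difference of 0.19 (SE 0.0579, exact permutation test, adjusted p = 0.0222). These ratios overlapped between the groups, and without siRNA replicate 3 the difference was 0.18 with an adjusted p of 0.0556 (over all alternatives 0.16 to 0.23, adjusted p from 0.0222 to 0.109).

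**Figure D2:**
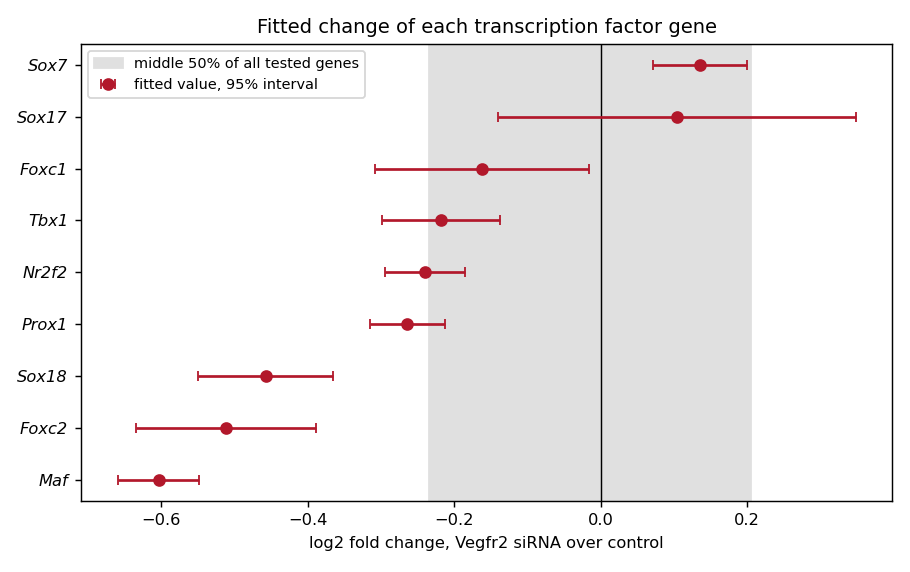
Fitted log2 fold change of each gene, Vegfr2 siRNA over control, with its 95% interval; the grey band spans the middle quartiles of all 12161 tested genes, from −0.23 to 0.21. Maf, Foxc2 and Sox18 have intervals wholly below the band, Prox1 and Nr2f2 sit at its lower edge, and Sox7 lies within it.

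The SoxF relatives of Sox18, which share its DNA-binding HMG box and act with it in the vascular endothelium of mice, were not among the genes that fell. Sox7 (Entrez gene 20680, chromosome 14, 63943706 to 63950732) was at 88.5, 81.5, 87.5, 85.1 and 87.8 CPM in siRNA libraries 1 to 5 and at 76.7, 74.8, 79.4, 82.1 and 78.8 CPM in control libraries 1 to 5. Only siRNA library 2 and control library 4 overlapped. Sox7 rose by 0.14 on the log2 scale (SE 0.0318, adjusted p = 0.000214). Sox17 (Entrez gene 20671, chromosome 1, 4490928 to 4497426) was barely expressed, with 51 to 71 counts in a library. It stood at 3.30 ± 0.367 CPM in siRNA and 3.07 ± 0.194 CPM in control libraries (SD, n = 5 each), and the groups overlapped. The log2 fold change of Sox17 was 0.10 (95% interval −0.14 to 0.35, adjusted p = 0.449), and 16.9% of its exon bases are shared with Gm37587 on the opposite strand.

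The ratio of Sox18 to Sox7 within a library tests directly whether they changed unequally. It was 1.13, 1.11, 0.94, 1.05 and 0.91 on the log2 scale in siRNA libraries 1 to 5, and 1.61, 1.80, 1.60, 1.55 and 1.54 in control libraries 1 to 5. Every siRNA library lay well below every control library, by −0.59 on average (SE 0.0644, exact permutation test, adjusted p = 0.0185). The ratio of Sox18 to Sox17 was lower by a similar amount, −0.56 (SE 0.0959, adjusted p = 0.0185 by the same exact test), while that of Sox7 to Sox17 differed by 0.04 (SE 0.105, adjusted p = 0.714). Per kilobase of transcript, Sox18 made up 80.0% ± 1.08 of the summed level of the 3 genes in siRNA libraries and 85.7% ± 0.833 in control libraries, and Sox7 made up 19.3% ± 1.06 in siRNA and 13.7% ± 0.839 in control libraries (SD, n = 5 each). The rise of Sox7 did not offset the fall of Sox18: the sum was 135 ± 6.90 CPM per kilobase in siRNA and 174 ± 7.12 CPM per kilobase in control libraries (SD, n = 5 each). The sums ran from 129 to 147 in siRNA and from 166 to 185 in control libraries, without overlap.

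**Figure D3:**
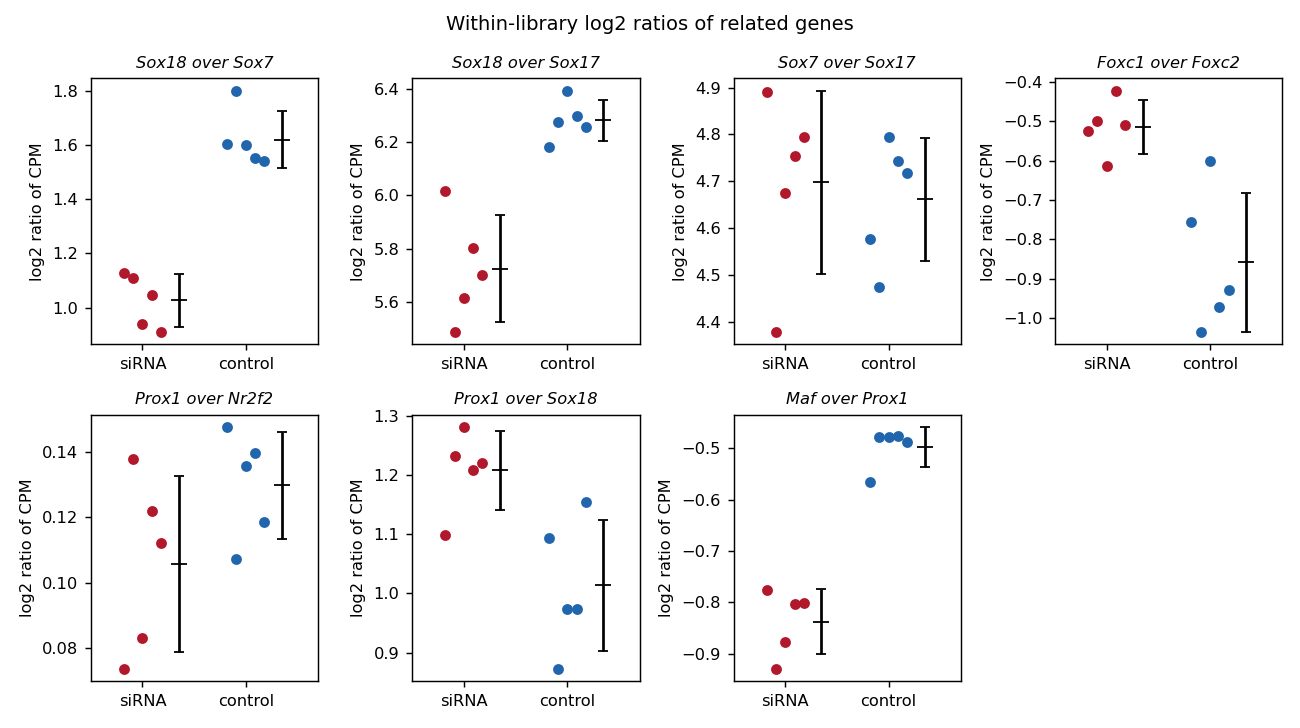
Log2 ratio of the CPM of 2 genes within each library, with Vegfr2 siRNA libraries in red and control libraries in blue, and the mean and SD of 5 libraries in black; each panel has its own vertical range. The ratios of Sox18 to Sox7, Sox18 to Sox17 and Maf to Prox1 do not overlap between the groups, whereas those of Sox7 to Sox17 and Prox1 to Nr2f2 do.

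Maf had the largest change of the 9. Maf (Entrez gene 17132, chromosome 8, 115703253 to 115706894) was at 242, 217, 222, 233 and 220 CPM in siRNA libraries 1 to 5 and at 337, 343, 339, 340 and 364 CPM in control libraries 1 to 5. The groups were far apart relative to their spread. Maf fell by 0.60 on the log2 scale (SE 0.0276, adjusted p = 7.07e-22), and 8.20% of tested genes had a change as low or lower. It fell more than Prox1, since the log2 ratio of Maf to Prox1 was −0.84 ± 0.06 in siRNA and −0.50 ± 0.04 in control libraries (SD, n = 5 each), a difference of −0.34 (SE 0.0333, exact permutation test, adjusted p = 0.0185). Reads from Gm15655 on the opposite strand could enter 5.34% of the exon bases of Maf.

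The small Maf genes, which encode partners of larger Maf factors and were named after their values were seen, did not fall with Maf. Maff (log2 fold change 0.25, adjusted p = 3.17e-10), Mafk (0.21, adjusted p = 5.03e-06) and Mafg (0.08, adjusted p = 0.00499) rose.

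Tbx1 (Entrez gene 21380, chromosome 16, 18580979 to 18590671), whose product activates the VEGF-C receptor gene Flt4 in mouse lymphatic endothelium, was at 42.2, 37.9, 39.5, 42.2 and 41.1 CPM in siRNA libraries 1 to 5. In control libraries 1 to 5 it was at 44.3, 48.3, 47.1, 49.7 and 46.7 CPM. The groups came close to each other but did not overlap. Tbx1 fell by 0.22 on the log2 scale (SE 0.0400, adjusted p = 5.87e-06), to 86.0% ± 3.94 of its control level (SD, n = 5).

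Both Foxc genes were expressed at low levels, and they differed in how firmly they changed. Foxc2 (Entrez gene 14234, chromosome 8, 121116171 to 121118895), the valve regulator, was at 15.6, 15.0, 14.4, 15.5 and 13.3 CPM in siRNA libraries 1 to 5 and at 19.0, 22.8, 19.2, 22.7 and 21.4 CPM in control libraries 1 to 5. The groups did not overlap. Foxc2 was at 70.1% ± 4.59 of its control level in siRNA libraries (SD, n = 5), a fall by 0.51 on the log2 scale (SE 0.0608, adjusted p = 6.15e-10). Foxc1 (Entrez gene 17300, chromosome 13, 31806646 to 31810635) was at 10.8, 10.6, 9.39, 11.6 and 9.30 CPM in siRNA libraries 1 to 5 and at 11.2, 11.1, 12.7, 11.6 and 11.2 CPM in control libraries 1 to 5, so that siRNA library 4 lay among the control libraries. The Foxc1 log2 fold change of −0.16 (SE 0.0723) passed narrowly (adjusted p = 0.0429). That call was lost without control replicate 3 (adjusted p = 0.143), control replicate 4 (0.0651), siRNA replicate 3 (0.125) or siRNA replicate 5 (0.133), and also in DESeq2 (0.106), without a filter on low counts (0.0596), with the replicate number as a block (0.0530) and with trends on GC content and length removed (0.113); over all alternatives but glmTreat, where it was 1, the adjusted p ran from 0.0153 to 0.143. The log2 ratio of Foxc1 to Foxc2 was −0.51 ± 0.07 in siRNA and −0.86 ± 0.18 in control libraries (SD, n = 5 each), a difference of 0.34 (SE 0.0847, exact permutation test, adjusted p = 0.0222), with overlap between siRNA library 3 and control library 3.

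Levels were compared between genes per kilobase of the longest annotated coding transcript. In siRNA libraries the order from the highest was Sox18 (108 ± 6.81 CPM per kilobase), Nr2f2 (89.2 ± 3.38), Prox1 (51.2 ± 1.54), Maf (35.7 ± 1.61), Sox7 (26.1 ± 0.870), Tbx1 (16.2 ± 0.741), Foxc2 (5.41 ± 0.354), Foxc1 (1.77 ± 0.167) and Sox17 (1.02 ± 0.113; SD, n = 5). In control libraries Sox18 was at 149 ± 7.45 CPM per kilobase, Nr2f2 at 105 ± 3.96, Prox1 at 61.5 ± 2.16, Maf at 54.2 ± 1.76, Sox7 at 23.8 ± 0.842, Tbx1 at 18.8 ± 0.805, Foxc2 at 7.72 ± 0.674, Foxc1 at 1.98 ± 0.110 and Sox17 at 0.948 ± 0.0599 (SD, n = 5). The order was the same in both groups, and neighbours stood apart by more than their SDs, but it rests on the annotated length. With the mean length of a gene's coding transcripts, Nr2f2 (173 CPM per kilobase in siRNA and 205 in control libraries) moved above Sox18. Tbx1 in control libraries (28.5) likewise moved above Sox7 (23.8), and in siRNA libraries it stayed below it (24.5 and 26.1). Sox17 in siRNA libraries (1.83) moved above Foxc1 (1.77). Among 11938 tested genes with a length, the control level of Sox18 lay at the 96.9th percentile, Prox1 at the 90.2nd, Foxc2 at the 39.1st and Sox17 at the 9.91st.

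**Figure D4:**
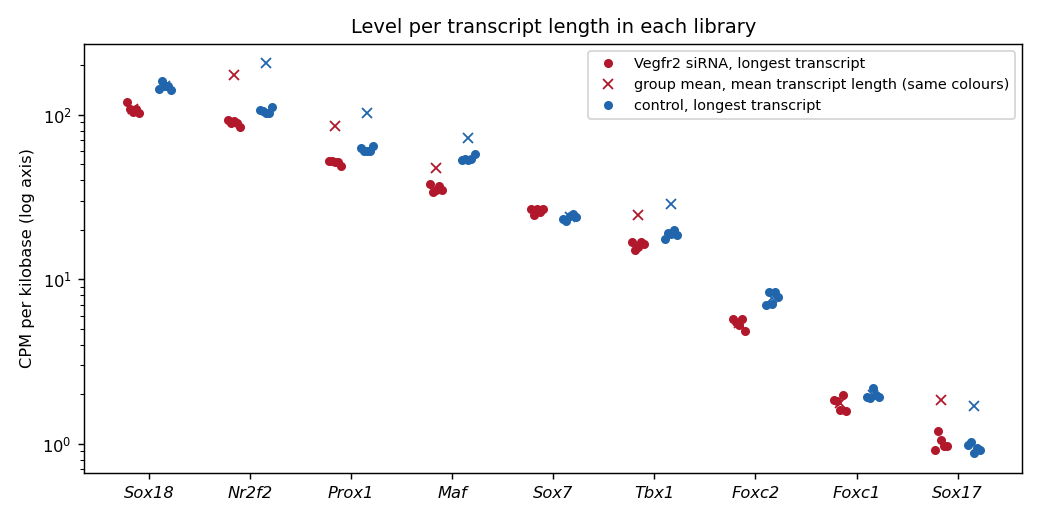
CPM per kilobase on a log axis for each gene, with a dot per library for the longest coding transcript and a cross for the group mean with the mean coding transcript length; Vegfr2 siRNA is red and control blue. Levels span from 149 CPM per kilobase for Sox18 in control libraries to 0.948 for Sox17.

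Other members of the same gene families moved in both directions. Of 32 listed relatives 24 were tested, of which 9 rose, 12 fell and 3 did not pass (87.5% called, against 71.3% of all genes; median log2 fold change −0.11). The SoxC gene Sox4 rose to 243 ± 7.84 CPM in siRNA libraries, against 126 ± 7.26 CPM in control libraries (SD, n = 5 each), and with Sox9 (7.85 ± 1.31 CPM in siRNA and 3.71 ± 0.478 CPM in control libraries) it was one of the 2 relatives that passed the 1.5-fold test. All 4 tested relatives of Nr2f2 fell, Nr2f1 (COUP-TFI) by 0.25 on the log2 scale (adjusted p = 0.00386). The forkhead genes Foxp1 and Foxo3 fell by 0.47 and 0.56.

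Other regulators of lymphatic fate and valves showed no common direction. Of 33 listed genes, 4 of which are also among the family relatives, 30 were tested. Of these, 14 rose, 12 fell and 4 did not pass (median 0.04). The share called was 86.7%, against 71.3% of all tested genes (35.2% lower and 36.1% higher). Of the factors that work with FOXC2 and PROX1 in valves, Gata2 rose to 61.9 ± 2.53 CPM in siRNA libraries, against 55.3 ± 1.40 CPM in control libraries (SD, n = 5 each). Nfatc1 fell to 152 ± 6.74 CPM in siRNA libraries, against 174 ± 5.28 CPM in control libraries. Hhex, a homeobox factor that acts upstream of Prox1 and Flt4 in mice, rose by 0.25 on the log2 scale (adjusted p = 8.54e-08), and the ETS factor gene Erg fell by 0.48. The Hippo effector gene Yap1 had a larger change than any of the 9 factors, at 69.0 ± 0.984 CPM in siRNA and 164 ± 3.63 CPM in control libraries (SD, n = 5 each), that is, −1.25 on the log2 scale. Runx1 (1.68) and the immediate early gene Egr1 (1.47) rose.

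The median change of genes linked to PROX1 in lymphatic endothelium was farther from 0 than that of Prox1 itself. Of 23 listed genes 21 were tested, and 14 fell, 5 rose and 2 did not pass (median −0.62). Of these 21, 90.5% were called, against 71.3% of all tested genes (35.2% lower and 36.1% higher). The integrin gene Itga9 (−1.07), needed for valve leaflets, the scavenger receptor gene Stab2 (−1.64) and Flt4 (−1.06) fell by more than 1 on the log2 scale, where Prox1 had −0.26. Lyve1, the hyaluronan receptor gene, fell by about as much as Prox1 (−0.24). The chemokine receptor gene Ackr3 (0.53) and the podoplanin gene Pdpn (0.81) rose. All the lymphatic markers counted above other than Prox1 (Stab2, Flt4, Mmrn1, Lyve1, Pdpn, Ccl21a and Reln) are also in this list, so both counts rest in part on the same genes.

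Of 41 listed valve genes 38 were tested, and 22 fell, 11 rose and 5 did not pass (median −0.22). The share called was 86.8%, against 71.3% of all tested genes (35.2% lower and 36.1% higher). The cadherin Celsr1, which orients valve endothelial cells, was at 25.8 ± 2.23 CPM in siRNA and 58.7 ± 1.53 CPM in control libraries, and the BMP9 receptor gene Acvrl1 at 126 ± 4.04 CPM in siRNA and 222 ± 5.47 CPM in control libraries (SD, n = 5 each). Gja4, the connexin 37 gene, which depends on FOXC2 in mouse valves, was low, with 64 counts over the siRNA and 142 over the control libraries, and fell by 1.16 on the log2 scale (adjusted p = 5.27e-05). Adm, which encodes the lymphatic growth peptide adrenomedullin, rose by 1.22. Itga9 and Angpt2 stand in both this list and the one before, and Gata2, Nfatc1, Klf2 and Klf4 in both this list and that of other regulators.

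**Figure D5:**
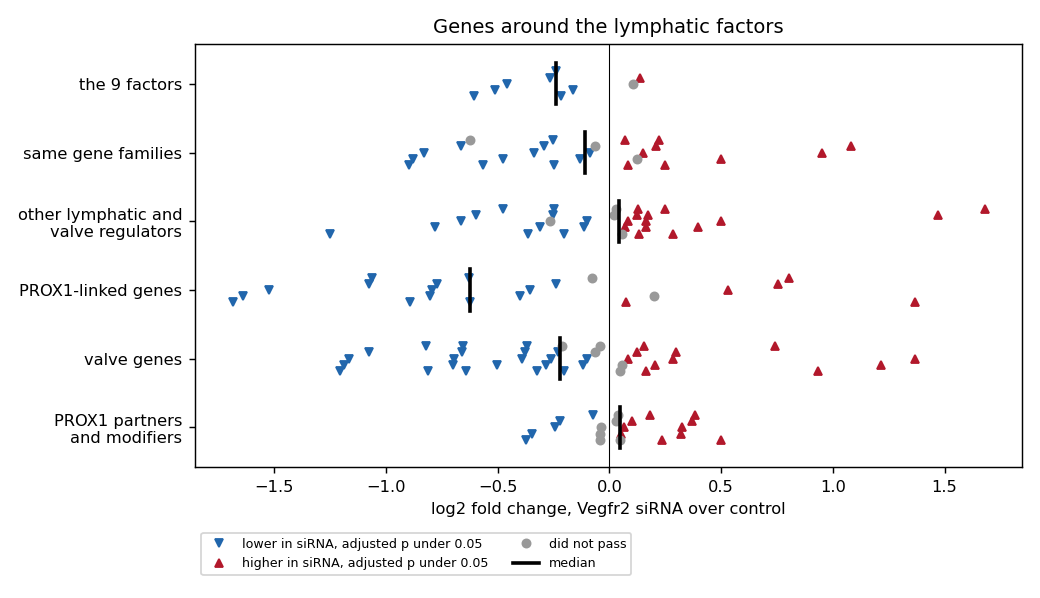
Log2 fold change, Vegfr2 siRNA over control, of each tested gene of the 9 factors and of 5 lists; triangles point in the direction of genes with an adjusted p under 0.05, grey dots did not pass, and black bars are medians. The 9 factors span −0.60 to 0.14, and the PROX1-linked genes span −1.69 (Ccl21a, of low counts) to 1.37.

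A 7-base word occurs in the 3′ UTRs (the untranslated ends of transcripts) of Prox1 and Maf. An earlier search of these data, of words that the seed of an siRNA could pair with, singled out GTAAAGA because genes that carry it had lower fold changes, so the word is no independent evidence. Of 11805 tested genes other than Kdr with a 3′ UTR of at least 50 bases, 1425 (12.1%) carry it, with a median log2 fold change of −0.15, against 0.02 for the rest. Prox1 and Maf carry 1 copy each, shown with the word in capitals on the minus strand of GRCm38, and the other 7 factors carry none.
Prox1, chr1:190119993-190120021: ttatgttttgtGTAAAGAatgttctattt
Maf, chr8:115702761-115702789: tgcatttaatgGTAAAGAtaaataattct
The Prox1 copy begins at base 3210 of a 3′ UTR of 5185 bases. The Maf copy begins at base 2973 of 4316, in a longer GENCODE transcript that runs past the end of the RefSeq gene, so it may not be part of all Maf transcripts. Of the 7 factors without the word 5 fell, with a median of −0.22. The part of the word in the changes of Prox1 and Maf was not tested.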

How the data were processed

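Poly(A) RNA was sequenced from 10 libraries of mouse LECs, 5 per group by the labels. The deposited table gives 1 unnormalized estimated count per gene and library. GRCm38.p6 is the build in the submitters' processing notes, which also list RSEM 1.3.1, Bowtie2 2.4.5 and HISAT2 2.2.1 without their roles. Annotation and strand setting: not given in the sources used here. None of the counts of the 9 factors was fractional, so their reads were not divided between genes.

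The deposited expected counts were rounded. The test was the robust quasi-likelihood F test of edgeR (4.0.16, under R 4.3.3), with the group as its sole term and libraries scaled by TMM. Genes that filterByExpr drops at a minimum count of 10 were left out (4090 genes), and p-values were adjusted by Benjamini-Hochberg over the rest. CPM values use TMM-scaled library sizes. Log2 ratios of gene pairs used log2 CPM with a prior count of 0.5 and an exact two-sided permutation test over the 252 assignments, adjusted over 7 pairs. Between libraries of the same group, chi-square per degree of freedom was 1.50 to 3.47, above sampling noise. Of 16251 gene IDs, 16202 matched the RefSeq gene table of GRCm38.p6, which gave gene coordinates, and 15700 matched GENCODE M21 transcripts, which gave lengths, GC content and 3′ UTRs (98.2% of tested genes). Promoter windows came from RefSeq (GRCm38.p6).

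The 9 factors, the lists and the tests were chosen with earlier results of these data known. Besides the 9 factors and Kdr, the rule for naming genes took up to 4 tested genes per list, those ranked first by adjusted p, plus a fixed set of names and the genes closest to Prox1. Maff, Mafk, Mafg, Reln, Ccl21a, Angpt2, Klf2 and Klf4 fall outside it and were named after their values were seen. So were the untested markers other than Col1a1 and Ptprc, which are in the fixed set. Counts from each list have no set test. On simulated data for this comparison with 200 of 12161 genes changed, the test found 36% of those changed 1.1-fold, 80% of those changed 1.25-fold, 82% of those changed 1.5-fold and 98% of those changed 2-fold; it made 7 false calls. Alternatives were each library left out, glmTreat, a replicate block, GC and length trends removed, no filter, genes above 5 CPM on average, limma-voom (limma 3.58.1), DESeq2 1.42.0, and scaling by RLE or upper quartile. Figures were drawn with matplotlib 3.10.9 in Python 3.11.15. A gene that the naming rule takes is not reported here.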

Additional observations from a re-analysis of the deposited data

Results flagged for a closer look

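For 52 tested genes taken by the naming rule and for the 7 ratios, the 5 libraries of each group were checked for 1 library that stood apart (gap to its neighbour over the group's range above 0.710). Chance gives such a library in about 1 of 20 groups, and 8 of 118 groups had one. Prox1 in siRNA replicate 5 was at 384 CPM, with the other siRNA libraries between 406 and 414 CPM. Maf in control replicate 5 was at 364 CPM, with the other control libraries between 337 and 343 CPM. In siRNA replicate 5, Hhex was at 64.8 CPM (others 70.9 to 72.6), Itga9 at 27.5 CPM (others 31.7 to 32.8) and Nrp1, a VEGF co-receptor gene, at 6.99 CPM (others 8.07 to 8.50). Ccnd1, the cyclin D1 gene, was at 132 CPM in siRNA replicate 1 (others 144 to 147). The log2 ratio of Sox18 to Sox7 was 1.80 in control replicate 2 (others 1.54 to 1.61), away from the siRNA libraries. The log2 ratio of Maf to Prox1 was −0.57 in control replicate 1 (others −0.49 to −0.48), toward the siRNA libraries. Leaving out any 1 of these libraries kept the Prox1 and Maf calls and both ratio calls.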

How the results depend on the processing

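Other than under glmTreat, the calls of Prox1, Nr2f2, Sox18, Sox7, Foxc2, Maf and Tbx1 kept their direction and passed in every alternative run, and Foxc1 is described above. The median of all genes moved by less than 0.02 under any scaling. Under glmTreat at 1.5-fold, 0 factors passed, 0 lower and 0 higher (0 at an unadjusted p under 0.05), of 1041 genes in all. The count was 0 lower and 2 higher for family relatives (3 lower and 2 higher unadjusted), 2 lower and 2 higher for other lymphatic and valve regulators, 7 lower and 2 higher for PROX1-linked genes, 9 lower and 4 higher for valve genes, and 0 lower and 0 higher for PROX1 partners (0 unadjusted). With each library left out, 7 to 8 factors were called (6 to 7 lower, 1 higher), of 8437 to 8549 genes, and the difference of the Sox7 to Sox17 ratio, which did not pass, ran from −0.0113 to 0.12 and that of Prox1 to Sox18 from 0.16 to 0.23. Same-numbered libraries of the groups did not deviate together (correlations from −0.195 to −0.0186). Such correlations cannot settle whether the numbers pair libraries, which the labels do not say. With the replicate block, 5 paired differences allow no exact p below 0.0625, and the differences of Sox18 to Sox7 (−0.59), Sox18 to Sox17 (−0.56), Maf to Prox1 (−0.34) and Prox1 to Sox18 (0.19) had an adjusted p of 0.109 and that of Foxc1 to Foxc2 (0.34) one of 0.175. In edgeR the block gave 7 factors called, losing Foxc1 (adjusted p = 0.0530). At 51 to 71 counts per library, the interval of Sox17 spans from −0.14 to 0.35 on the log2 scale, so smaller changes were not detectable.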

Other observations

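Genes of proteins that bind or modify PROX1 changed little and in both directions. Of 22 listed genes 21 were tested, and 10 rose, 5 fell and 6 did not pass (71.4% called, against 71.3% of all genes; median log2 fold change 0.05). The histone deacetylase gene Hdac3, whose product acts with PROX1 as a corepressor in liver, was at 62.8 ± 1.85 CPM in siRNA and 48.1 ± 1.08 CPM in control libraries (SD, n = 5 each), and Hdac2 rose by 0.50 on the log2 scale and the demethylase gene Kdm1a by 0.33. Ccnd1 fell by 0.35. Over the 9 factors, siRNA replicate 5 was the lowest siRNA library for 5 genes and siRNA replicate 1 the highest for 6, and no control library was the extreme for more than 3 in one direction.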
